A study of Bos grunniens x Bos taurus and Bos grunniens with 6 samples.

Results

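Caspases are proteases that dismantle a cell during apoptosis, and they are switched on by 2 routes. In the death receptor route, a ligand outside the cell gathers a receptor such as FAS, the adaptor FADD and the initiator caspase 8 into a complex at the membrane, and TRADD serves as the adaptor of the tumour necrosis factor receptor. In the mitochondrial route, cytochrome c released into the cytoplasm assembles APAF1 into the apoptosome, which activates the initiator caspase 9. Caspase 2 is activated on a platform of its own, and caspase 6 acts downstream of the initiators, with the lamins of the nucleus among its substrates. In the testis, apoptosis removes surplus and defective germ cells, and spermatogonia and spermatocytes are the cells in which it is best known.

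The transcripts of this machinery were followed in testis RNA-seq libraries, through the symbols CASP2, CASP6, CASP8, CASP9, APAF1, FAS, FADD and TRADD. A gene was taken when its symbol in the table, regardless of case, was one of these, which gave 9 genes of 18918, since FAS stands on 2 genes. These 9 genes are not all the caspases or adaptors of the table. The groups were 3 male F1 cattle-yaks (C1, C2 and C3), sired by Jersey bulls on Gannan yak cows, and 3 male Gannan yaks (Y1, Y2 and Y3). Each animal was 4 years old and gave 1 library, none of them pooled. The groups also came from different counties, and cattle-yak testes were taken at castration whereas yak testes were taken after the animals had been euthanised. These conditions cannot be told apart from the genotype. Levels are FPKM, that is fragments per kilobase of gene model and scaled to the fragments of the library, and reads of both groups had been mapped to the yak genome.

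The second gene with the symbol FAS (ENSBGRG00000015865) is described in the same table as TNF receptor superfamily member 25, another death receptor, and it does not carry the KEGG apoptosis annotation that the other 8 genes carry. Symbol and description therefore name different genes, and below it is given by its identifier, while FAS means ENSBGRG00000017283, described as the Fas cell surface death receptor. CASP8, FAS and FADD share the GO term for the CD95 death-inducing signaling complex.

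The libraries were scaled to 11175100 to 11834987 fragments in cattle-yak and to 12991641 to 13136129 for the yaks, so that 1 fragment on 1 kb was worth 0.0761 to 0.0895 FPKM. The fragments recovered on the genes add up to nearly these totals, 11142248 to 11804432 and 12938734 to 13084475. The totals therefore do not give the depth of sequencing. Markers of spermatids were low in cattle-yak, with a summed FPKM of 4.93 to 25.6 for 4 round spermatid genes against 591.7 to 630.7 in yak, and all 4 were called lower. Markers of Sertoli cells moved the other way, with 12 of 13 genes called higher and a summed FPKM of 2648 to 2819 against 557.4 to 625.8. Spermatogonial markers were also higher, in 6 of 7 genes (summed FPKM 716.2 to 909.5 against 171.8 to 236.9), as were 8 of 8 Leydig cell genes and 6 of 6 genes of peritubular myoid cells. None of the markers was at 0 in every library. The median log2 (foldchange) of the 15042 genes tested was 0.51, so that a typical gene was itself higher in cattle-yak. From the RNA of bulk tissue alone, fewer cells of a type and less RNA per cell cannot be told apart. The study's histology described no round spermatids or sperm in cattle-yak tubules, and fewer spermatogonia and primary spermatocytes than in yak. The part that the cell make-up has in the differences below was not tested.

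Of the 9 genes, 8 had a mean FPKM of at least 0.5 and entered the limma comparison of log2 (FPKM + 1) over all 15042 genes. CASP6, TRADD, CASP8 and FADD passed both thresholds (adjusted p under 0.05 and a log2 (foldchange) beyond 1) and were higher in cattle-yak. None of the 8 was called lower. Centring the libraries on Sertoli cell genes, themselves higher in cattle-yak, lowered every gene by the same amount and put all 4 below 0. For CASP6 the value was then −0.11 (limma adjusted p = 0.53). The 4 called of 8 stand beside 33.4% of all tested genes called higher and 54.2% called in either direction. With the adjusted p alone, 7 of the 8 were higher, where the background was 52.6% higher, 29.2% lower and 81.9% in either direction. The groups did not overlap for the same 7 genes, as in 53.9% of tested genes in that direction, 30.2% in the other and 84.1% in either, so a gap between the groups was the usual state of a gene in these libraries. CASP9 was the exception, with overlapping groups. The median log2 (foldchange) of the 8 genes was 0.98, against 0.51 for all genes tested. With median-of-ratios scaling 3 of the 8 were called higher, beside 17.7% of all genes higher, 27.7% lower and 45.4% in either direction. With Sertoli centring none was called higher and 5 were called lower, beside 0.133%, 80.1% and 80.2%. With voom on the recovered fragments 5 were called higher, FAS being the fifth, beside 39.7% higher, 22.7% lower and 62.4% in either direction.

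**Figure D1:**
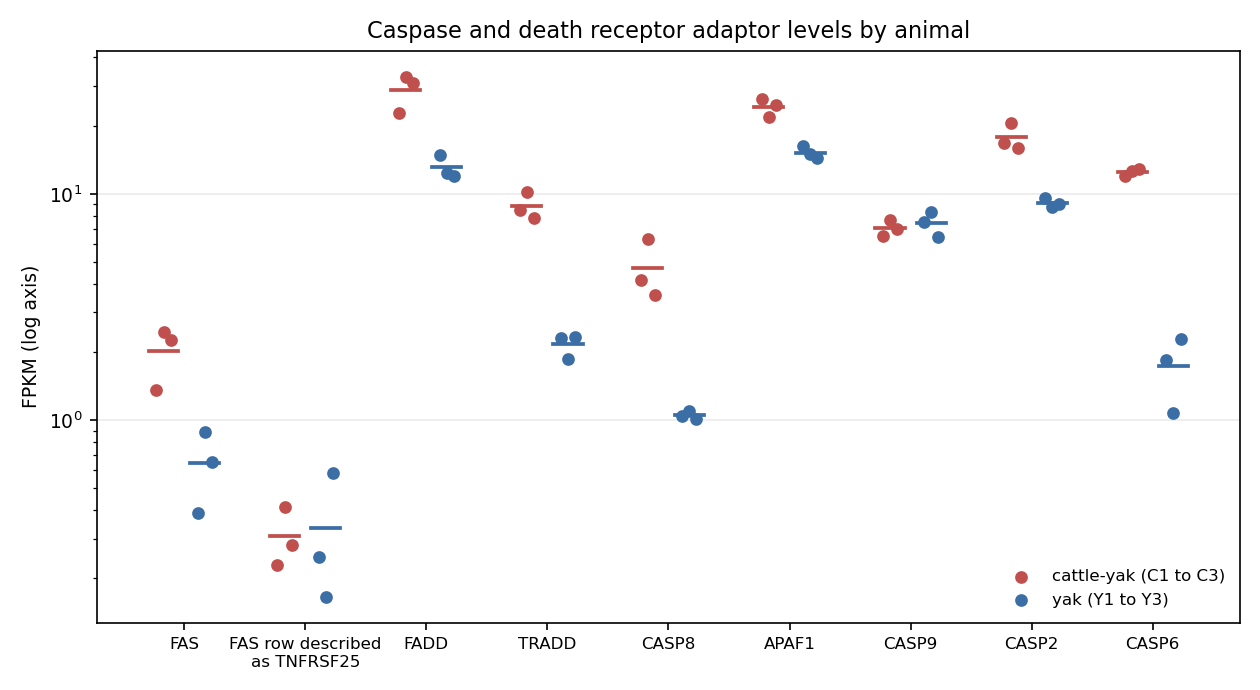
FPKM of the 9 genes in each animal on a log axis, with cattle-yak in red and yak in blue, points for animals and bars for group means. Cattle-yak and yak are apart for 7 genes and overlap for CASP9 and for the FAS row described as TNF receptor superfamily member 25.

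FAS, the receptor that binds Fas ligand at the cell surface, was the least abundant of the genes tested. Its FPKM values were 1.35, 2.44 and 2.26 for C1 to C3 and 0.39, 0.88 and 0.66 for Y1 to Y3. All cattle-yak animals lay above all yak animals, with means of 2.02 ± 0.58 and 0.64 ± 0.25 (SD, n = 3), a ratio of 3.14. The values rested on 47 to 80 fragments per cattle-yak library and on 15 to 34 per yak library, and the coefficient of variation in yak was 38.5%, where counting alone would give 20.1%. The log2 (foldchange) was 0.87 (standard error, SE, 0.20, limma adjusted p = 0.0041), under the threshold of 1. Because the pseudocount of 1 exceeds the yak level, this value understates the change, and with a pseudocount of 0.1 the log2 (foldchange) was 1.53.

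ENSBGRG00000015865, the other gene with the symbol FAS, was near the limit of these libraries. It had 10, 17 and 12 fragments in C1 to C3 and 12, 8 and 28 in Y1 to Y3, that is 0.31 ± 0.095 and 0.33 ± 0.22 FPKM (SD, n = 3). The groups overlapped, and the gene lay under the minimum of 0.5 FPKM for the test.

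FADD, the adaptor that links FAS to caspase 8, was the most abundant of the 9 genes in cattle-yak. Its FPKM values were 22.8, 32.9 and 30.8 for C1 to C3 and 14.9, 12.4 and 12.02 for Y1 to Y3. The groups did not overlap, and the means were 28.8 ± 5.33 and 13.1 ± 1.54 (SD, n = 3). The log2 (foldchange) was 1.07 (SE 0.16, limma adjusted p = 0.0003), just past the threshold. Leaving out C2 gave 0.97, and median-of-ratios scaling of the libraries gave 0.48, so this call rests on C2 and on the scaling. The recovered gene length of FADD was 615 bases, the shortest of the 9, which leaves 96 to 226 fragments behind these values.

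TRADD, the adaptor of the tumour necrosis factor receptor TNFRSF1A, showed a larger difference. It had 8.48, 10.2 and 7.81 FPKM in C1, C2 and C3, and 2.31, 1.87 and 2.34 in Y1, Y2 and Y3. Every cattle-yak value was more than 3 times every yak value. The log2 (foldchange) was 1.63 (SE 0.15, limma adjusted p = 2e-05), and 85.1% of the tested genes had a smaller one.

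CASP8, the initiator caspase recruited by FADD, had 4.18, 6.33 and 3.56 FPKM for C1 to C3. In yak it had 1.05, 1.10 and 1.012 FPKM for Y1 to Y3, below every cattle-yak value. The cattle-yak animals were spread widely (4.69 ± 1.45, SD, n = 3) and the yak animals closely (1.05 ± 0.044), yet the yak values came from only 21 to 23 fragments per library, where counting alone would give a coefficient of variation of 21.3% and 4.14% was seen. The error of CASP8 in yak is therefore better read from the count than from these 3 values. The log2 (foldchange) was 1.44 (SE 0.20, limma adjusted p = 0.00018), with a 95% interval from 0.99 to 1.90. Because the yak level is close to the pseudocount of 1, this value understates the change, and with a pseudocount of 0.1 it was 2.01. With median-of-ratios scaling it was 1.02, just past the threshold.

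APAF1, the scaffold of the apoptosome, was the most deeply covered member, with 759 to 1258 fragments per library. It had 26.3, 21.8 and 24.7 FPKM in C1, C2 and C3, and 16.2, 15.02 and 14.4 in Y1, Y2 and Y3. The groups were apart, but the ratio of the means was only 1.59. The log2 (foldchange) of 0.64 (SE 0.11, limma adjusted p = 0.00091) was under the threshold and lay 0.13 above the median of all tested genes. With median-of-ratios scaling it was 0.05.

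CASP9, the initiator caspase that the apoptosome activates, was the only tested gene of the set without a gap between the groups. Its FPKM values were 6.50, 7.68 and 6.996 for C1 to C3 and 7.49, 8.27 and 6.45 for Y1 to Y3. The means were 7.06 ± 0.59 and 7.404 ± 0.91 (SD, n = 3), on 147 to 207 fragments per library. The log2 (foldchange) was −0.06 (SE 0.14, limma adjusted p = 0.72), with a 95% interval from −0.38 to 0.27 that excludes a change of the size seen for CASP6, TRADD or CASP8. Relative to the median of all tested genes it was −0.57, and with median-of-ratios scaling −0.60 (limma adjusted p = 0.0044), short of the threshold of −1.

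CASP2, a caspase with roles after DNA damage and in oocyte and germ cell loss, had 16.7, 20.6 and 15.95 FPKM in C1, C2 and C3, against 9.57, 8.74 and 8.97 in Y1, Y2 and Y3. The groups did not overlap, with 17.7 ± 2.48 and 9.09 ± 0.43 FPKM (SD, n = 3). The log2 (foldchange) of 0.88 (SE 0.13, limma adjusted p = 0.0003) remained under 1. The ratio of the means was 1.95.

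CASP6, which cleaves lamin A, showed the largest difference of the set. It had 11.99, 12.6 and 12.8 FPKM for C1 to C3, a spread of 3.43% that is under the 5.63% given by counting. In yak it had 1.84, 1.08 and 2.28 FPKM for Y1 to Y3, a spread of 35.1%. The ratio of the means was 7.19, and the log2 (foldchange) was 2.32 (SE 0.19, limma adjusted p = 8e-06), a value larger than that of 96.5% of the tested genes. It was the member with the largest value under each of the 3 scalings plotted below, although under Sertoli centring that value was −0.11.

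**Figure D2:**
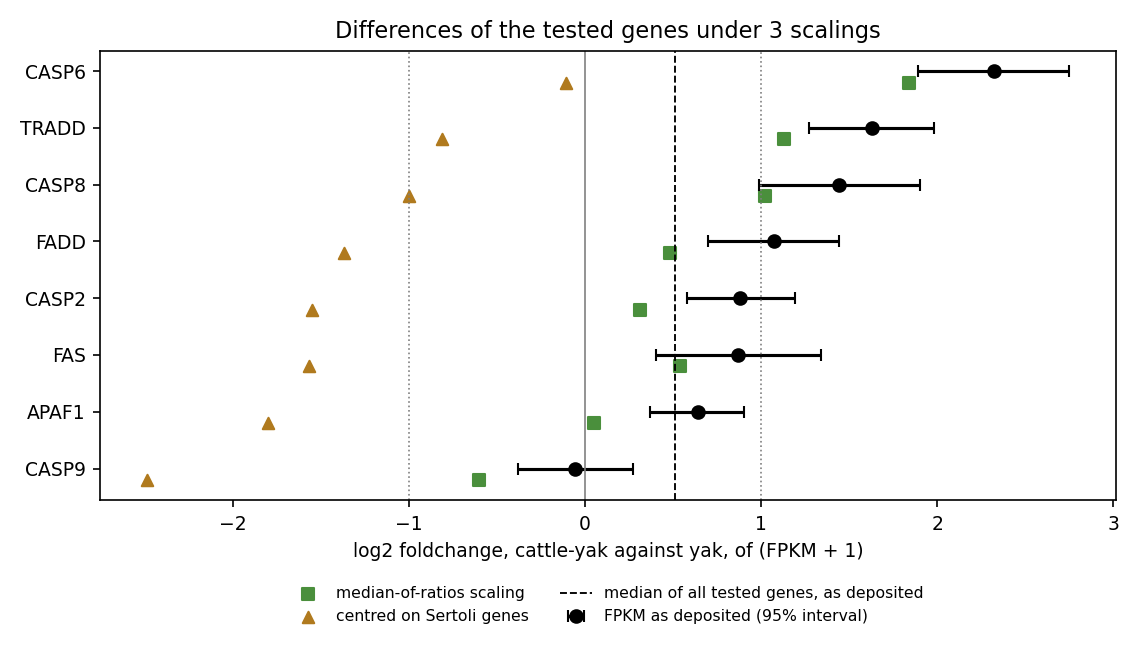
The log2 (foldchange) of cattle-yak against yak for the 8 tested genes, with black points and 95% intervals for FPKM as deposited, green squares after median-of-ratios scaling and brown triangles after centring on Sertoli cell genes. The dashed line marks the median of all tested genes, 0.51, and the dotted lines mark −1 and 1. The genes shift together between the scalings, with CASP6 at the upper and CASP9 at the lower end in each.

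The order of the levels differed between the groups. In cattle-yak it ran from FADD (28.8 FPKM) through APAF1, CASP2, CASP6, TRADD, CASP9 and CASP8 to FAS and last ENSBGRG00000015865, and among neighbours only the ranges of FADD and APAF1 overlapped. In yak it ran from APAF1 (15.2 FPKM) through FADD, CASP2, CASP9, TRADD, CASP6 and CASP8 to FAS and ENSBGRG00000015865, where APAF1 and FADD, TRADD and CASP6, CASP6 and CASP8, and the 2 genes with the symbol FAS overlapped. CASP9 stood at rank 4 in yak and at rank 6 in cattle-yak, while CASP6 went from rank 6 to rank 4. In cattle-yak FADD was above 77.9% of all genes in the table, and CASP8 in yak above 29.4%. The summed FPKM of the 8 genes other than ENSBGRG00000015865 was 98.3 to 114.5 among the cattle-yak libraries, and 48.2 to 53.7 among those of yak.

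Within that sum, CASP9 contributed 6.62% to 6.71% in C1 to C3, against 13.4% to 16.8% in Y1 to Y3. CASP6 contributed 10.98% to 12.2% and 2.19% to 4.74%. TRADD went from 3.78% to 4.85% in yak to 7.44% to 8.91% in cattle-yak. The share of CASP2 changed little, 15.2% to 17.96% against 17.7% to 18.6%.

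**Figure D3:**
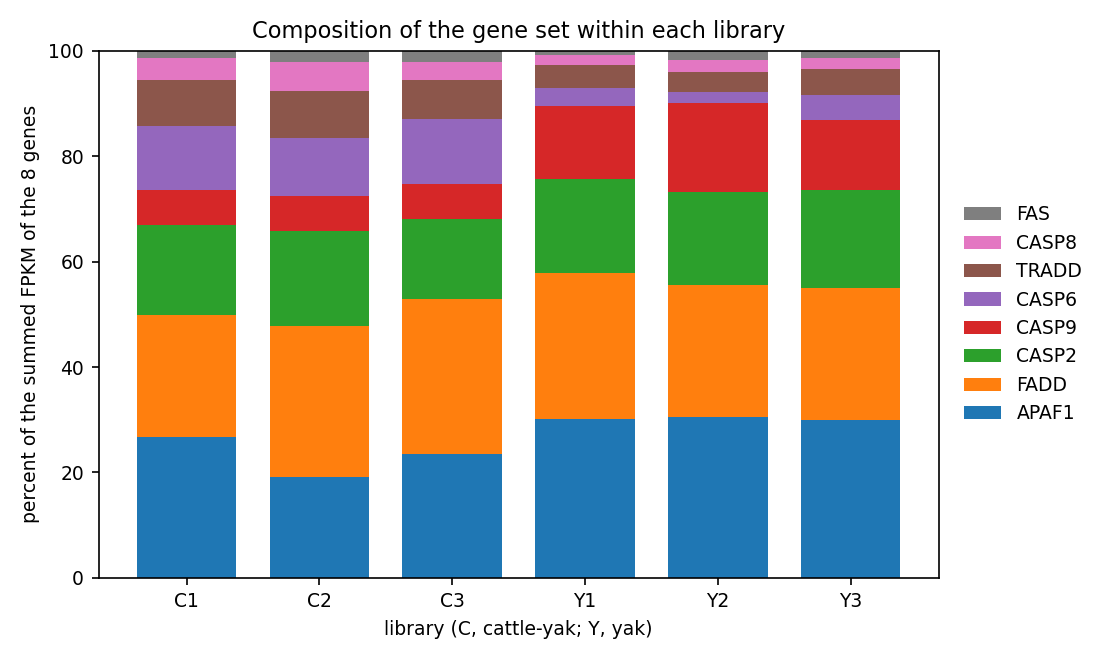
Percent of the summed FPKM of 8 genes contributed by each gene, 1 bar per library (C1 to C3, cattle-yak, and Y1 to Y3, yak). The red block of CASP9 is at most 6.71% in cattle-yak and at least 13.4% in yak, while the purple block of CASP6 is larger in cattle-yak.

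A ratio of 2 genes within a library does not depend on how libraries are scaled to each other, and 8 such ratios were compared with exact permutation tests over the 10 ways to split the animals, where the smallest possible p is 0.1. The ratio of CASP8 to CASP9, the initiators of the death receptor and the mitochondrial route, was 0.64, 0.82 and 0.51 in C1, C2 and C3. It was 0.14, 0.13 and 0.16 in Y1, Y2 and Y3. The groups did not overlap, and the log2 difference was 2.18, that is 4.52-fold (exact permutation test, two-sided, p = 0.1, adjusted p = 0.13 over 8 ratios).

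CASP6 to CASP9 differed most, from 1.64 to 1.84 in cattle-yak against 0.13 to 0.35 in yak, a log2 difference of 2.98. CASP6 was thus above CASP9 in each cattle-yak library and below it in each yak library. CASP2 to CASP9 was 2.28 to 2.68 against 1.06 to 1.39, and APAF1 to CASP9, the scaffold over its protease, was 2.84 to 4.04 against 1.82 to 2.24. For these 3 ratios the groups did not overlap (exact permutation test, p = 0.1 each, adjusted p = 0.13). The ratios over CASP9 share that gene, whose log2 (foldchange) was −0.06, so they are not independent of each other. Of all tested genes, 53.9% were higher in every cattle-yak library than in any yak library. The share of all genes whose ratio to CASP9 would do the same was not counted.

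Ratios with the adaptor FADD lay apart between the groups as well, though no exact permutation p could fall under 0.1. FADD to TRADD was 2.69, 3.22 and 3.95 in C1, C2 and C3 and 6.43, 6.64 and 5.14 in Y1, Y2 and Y3, a log2 difference of −0.89 with no overlap. FADD to CASP8 ranged from 5.20 to 8.66 among cattle-yak libraries and from 11.3 to 14.2 among the yak libraries (log2 difference −0.98, no overlap, exact permutation p = 0.1 for both ratios, adjusted p = 0.13). With 1 FPKM added to each gene, the difference of FADD to CASP8 was −0.37 (exact permutation p = 0.3). FAS to CASP8 overlapped between the groups (log2 difference −0.43, exact permutation p = 0.4, adjusted p = 0.4), as did CASP6 to CASP8 (0.80, exact permutation p = 0.2, adjusted p = 0.23).

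**Figure D4:**
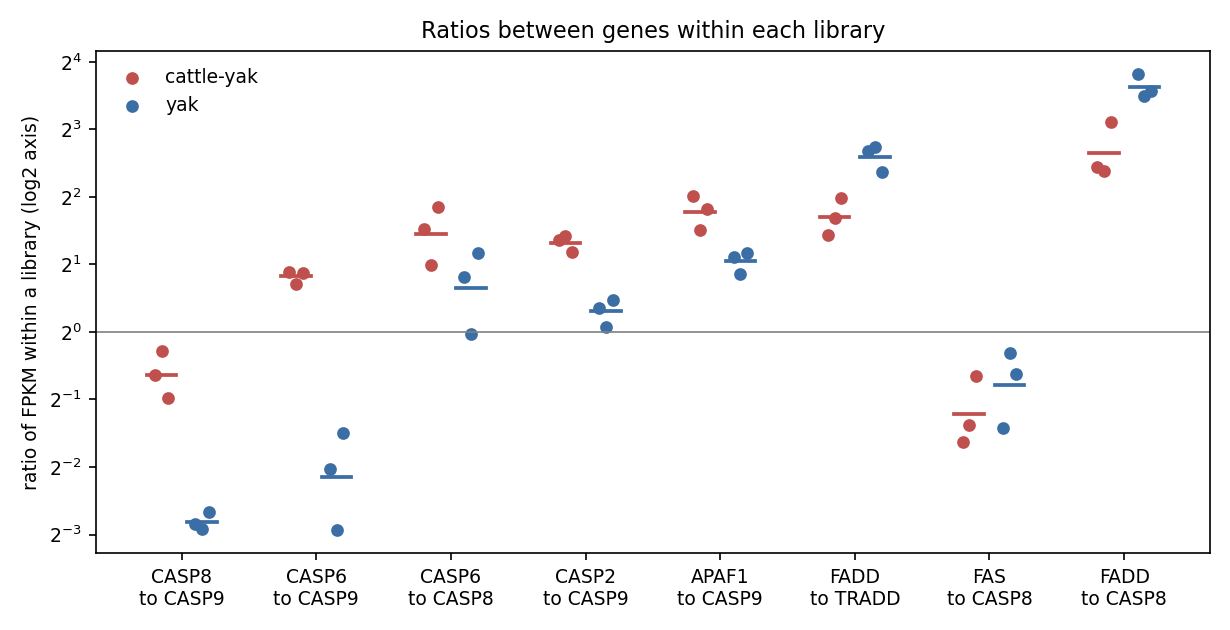
Ratios of FPKM between 2 genes within each library on a log2 axis, with points for animals (cattle-yak red, yak blue) and bars for geometric means. The 4 ratios over CASP9 are higher in every cattle-yak library than in any yak library, FADD to TRADD and FADD to CASP8 are lower, and CASP6 to CASP8 and FAS to CASP8 overlap.

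Among the cattle-yak animals, C2 held the highest value for 7 of the 9 genes, while APAF1 was highest in C1 and CASP6 in C3. The median FPKM of all genes was likewise highest in C2, 6.85, against 6.70 in C1 and 6.21 in C3. The share of all genes with their highest cattle-yak value in C2 was not counted. Markers of other cells in that library moved too. The summed FPKM of 8 spermatocyte genes was 201.3 in C2, 346.6 in C1 and 318.3 in C3, against 371.7 to 386.8 in yak, with 1 of the 8 called higher and 1 lower. PIWIL1, called lower, averaged 148.4 FPKM in yak and 15.7 in cattle-yak, and so makes up much of the yak sum. SYCP3, called higher, averaged 40.7 FPKM in yak and 91.0 in cattle-yak. The summed FPKM of 9 lymphocyte genes was 50.4 in C2, 27.2 in C1 and 41.1 in C3, against 14.7 to 28.1 in yak, with 4 of the 8 tested called higher and 1 lower. For macrophages the sum ranged from 71.9 to 94.7 among cattle-yak libraries and from 97.6 to 116.4 among those of yak. Of the 6 genes, 3 were called higher and 2 lower. AIF1, called lower, averaged 61.3 FPKM in yak and 3.55 in cattle-yak, and so makes up much of the yak sum. The myoid sum was 781.8 in C2, 584.3 in C1 and 594.9 in C3, against 118.6 to 146.8 in yak. The part of these cells in the values of C2 was not tested.

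Likeness of pattern was measured as Pearson's r of log2 (FPKM + 1) over the 6 libraries, a description in which the gap between the groups dominates. CASP6 was matched by 5007 tested genes at an r of at least 0.95 and most closely by UPF3B (r = 0.9999). TRADD had 5089 such genes, CASP2 4070, CASP8 3350, FADD 2636 and APAF1 2383. FAS had 342 and CASP9 only 4, with ACER1 the closest to CASP9 (r = 0.972) and RMI2 the closest to FAS (r = 0.996). The nearest genes were CAPN7 for TRADD, DOCK6 for CASP2, FBLN5 for CASP8, GALNT12 for FADD and MCOLN3 for APAF1.

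The other genes of the pathway were taken from lists by role, 55 genes in all, of which 49 were tested. In these lists 19 genes were called higher and 5 lower, with a median log2 (foldchange) of 0.56, beside 33.4% and 20.8% of all genes tested. Of the 122 tested genes that the table annotates to KEGG apoptosis, a set that holds 8 of the genes above and was counted after the data had been seen, 61 were called higher and 9 lower, with a median of 1.04.

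Among 6 tested death ligands and receptors, 4 were called higher and 1 lower, with a median of 1.33, beside 33.4% higher and 20.8% lower of all tested genes. TNFRSF1A, the tumour necrosis factor receptor that recruits TRADD, averaged 94.9 ± 2.80 FPKM in the cattle-yak libraries (SD, n = 3), where the yak mean was 20.8 ± 1.98, with a log2 (foldchange) of 2.14 (limma adjusted p = 5.9e-07). TNFRSF21, also known as death receptor 6, was called in the opposite direction, with 3.16 ± 0.64 FPKM against 12.5 ± 1.74 and a log2 (foldchange) of −1.71 (limma adjusted p = 2.6e-05). Of the 4 ligands in the table, TNFSF10, also known as TRAIL, was tested and called higher, with 4.69, 5.08 and 5.59 FPKM for C1 to C3 and 2.03, 1.33 and 0.80 for Y1 to Y3 (log2 (foldchange) 1.39, SE 0.21, limma adjusted p = 0.0003). Its groups did not overlap, on 48 to 56 and 9 to 23 fragments. With median-of-ratios scaling 2 of the 6 genes of this list were called higher, beside 17.7% of all tested genes. The other ligands were close to the floor. FASLG, the ligand of FAS, had 8, 6 and 22 fragments in C1 to C3 and 12, 9 and 1 in Y1 to Y3, with overlapping groups. TNF had 1, 4 and 3 fragments in cattle-yak and was listed at 0 in the yak libraries, so its groups did not overlap. LTA had 2, 2 and 1 fragments in C1 to C3 and 2, 9 and 1 in Y1 to Y3, with overlapping groups. These 3 were not tested, and such counts are too few to give the size of a difference.

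Of 15 genes that regulate the receptor complex, 3 were called higher and 3 lower, with a median of 0.25, beside 33.4% and 20.8% of all tested genes. CFLAR, a caspase-8-like protein without protease activity that competes for FADD, averaged 9.75 ± 0.60 FPKM in the cattle-yak libraries against 2.46 ± 0.57 (SD, n = 3), with a value of 1.65 (limma adjusted p = 2.5e-05). CASP8AP2, a partner of caspase 8, and PEA15, a death effector domain protein that also binds FADD, were called higher, with ratios of the means of 3.38 and 1.99, the latter at the threshold. FAIM2, named as an inhibitor of FAS, stands on 2 genes and both were called lower. The gene described as FAIM2 (ENSBGRG00000002579) averaged 1.21 ± 0.57 FPKM in the cattle-yak libraries against 108.7 ± 19.5 (SD, n = 3) and had a log2 (foldchange) of −5.65, and the other (ENSBGRG00000018687) had −3.86. Genes that share a symbol may share reads, so their values are uncertain. FAF1, the Fas associated factor, was called lower with −1.19.

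Of 6 apoptosome and mitochondrial factors, 3 were called higher and none lower, beside 33.4% and 20.8% of all tested genes. With median-of-ratios scaling 2 were called higher and 1 lower, beside 17.7% and 27.7% of all tested genes. AIFM1, a mitochondrial flavoprotein that moves to the nucleus in cell death, led with 2.42, and CYCS, the cytochrome c that binds APAF1, had 87.2 ± 11.2 FPKM against 24.1 ± 2.25 (SD, n = 3) and 1.81. CYCT, the testis form of cytochrome c, had 36.9 ± 4.99 against 60.4 ± 12.5 FPKM. Its log2 (foldchange) was −0.68, which for FPKM as deposited was not past the threshold of −1. HTRA2, a protease of the intermembrane space, was called higher with 1.34.

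The inhibitors of apoptosis proteins divided, with 2 of 6 genes called higher, 1 lower and a median of −0.01, beside 33.4% higher and 20.8% lower of all tested genes. With median-of-ratios scaling 2 were called higher and 2 lower, beside 17.7% and 27.7%. XIAP, which binds caspase 9, averaged 29.5 ± 1.18 FPKM in the cattle-yak libraries against 6.55 ± 0.64 (SD, n = 3). Its difference on the log2 scale was 2.02 (limma adjusted p = 1.5e-06). BIRC6 was called higher with 1.66. BIRC5, which also serves in cell division, was called lower with −1.16 (limma adjusted p = 0.00053), and without C2 the number of these genes called lower was 0. CRADD, the adaptor of caspase 2, had 5.55 ± 1.42 against 2.98 ± 0.71 FPKM and 0.71, under the threshold.

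Of the inflammatory and other caspases with their adaptors, CASP4 and 1 of 3 genes with the symbol CASP14 (ENSBGRG00000007505) were called higher, with 1.34 and 1.68, and PYCARD, the adaptor of the inflammasome, had 0.59. Thus 2 of the 3 tested genes of this list were called higher, beside 33.4% of all tested genes. With median-of-ratios scaling 1 of the 3 was called higher, beside 17.7%. CASP1 had 15, 21 and 11 fragments in C1 to C3 and 9, 10 and 4 in Y1 to Y3. Its FPKM was higher in every cattle-yak library than in any yak library, but it was not tested. The other CASP14 genes had at most 5 fragments in any library, and the one described as caspase 14 (ENSBGRG00000017337) had none in C1, C2 or C3. Among 12 caspase substrates 5 were called higher and none lower, with a median of 0.59, beside 33.4% higher and 20.8% lower of all tested genes. With median-of-ratios scaling 1 of the 12 was called higher, beside 17.7% of all tested genes. PAK2, a kinase that caspases activate by cleavage, had the largest value, 1.67, and SREBF2 the smallest, −0.04. LMNA, the lamin A gene and a substrate of caspase 6, had 32.7 ± 1.87 FPKM against 11.98 ± 1.46 (SD, n = 3) and 1.38 (limma adjusted p = 1.2e-05).

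**Figure D5:**
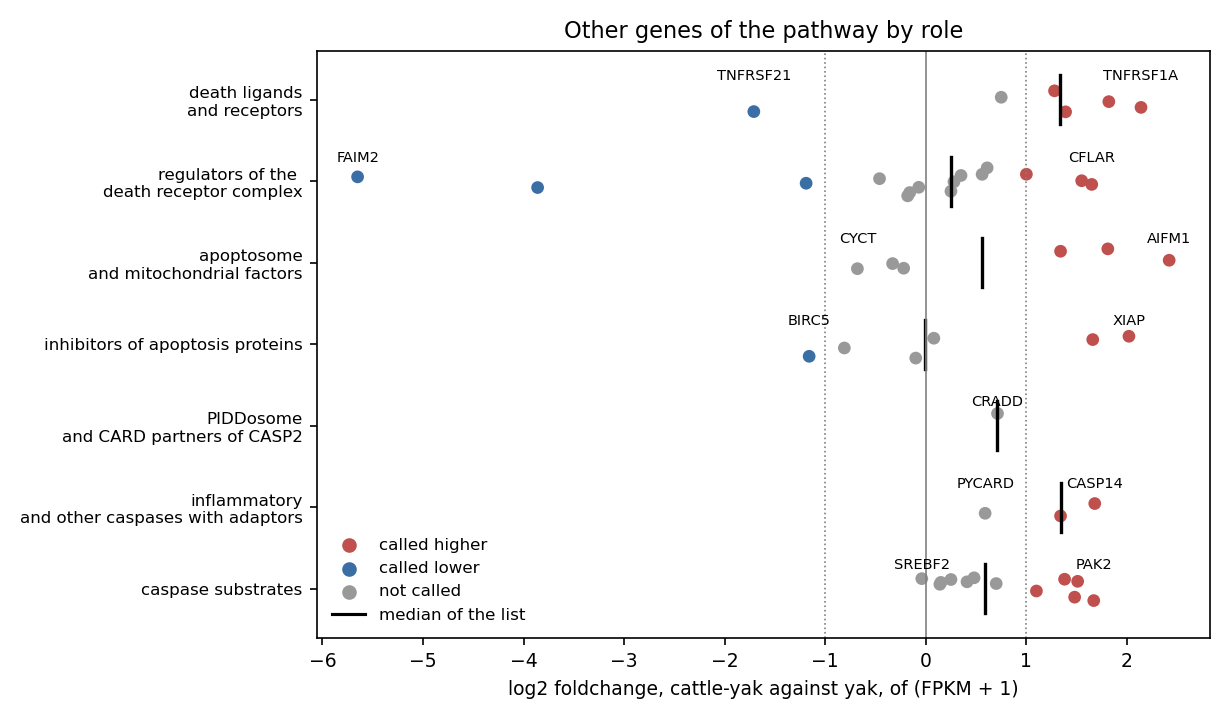
The log2 (foldchange) of 49 tested genes in 7 role lists, 1 point per gene, red where called higher in cattle-yak, blue where called lower and grey where not called, with a black bar for the median of each list and vertical scatter only for legibility. The named genes are the highest and lowest of each list, from FAIM2 at −5.65 to AIFM1 at 2.42.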

How the data were processed

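Testis RNA from 3 cattle-yak and 3 yak was sequenced as paired ends, and the columns were matched to the animals by title. Per the study's methods, the authors trimmed reads with Trimmomatic, mapped both groups with HISAT2 to the yak genome LU_Bosgru_v3.0 and calculated FPKM with Cufflinks. The deposited FPKM values are scaled to the fragments of each library, with no further scaling between libraries. They stand in whole-number ratios, from which fragments were recovered for 17973 genes (within 0.03 of a whole number). The genes whose mean FPKM reached 0.5 were compared two-sided with limma 3.58.1 in R 4.3.3 on log2 (FPKM + 1), with a variance trend and Benjamini-Hochberg adjustment over 15042 genes. For genes with low values such a fold change is too small. The scripts were tested on simulated data. Single ratios were compared with exact permutation tests. Tables and figures used pandas 2.3.3, numpy 2.4.6 and matplotlib 3.10.9 under Python 3.11.15.

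All 9 member genes are named, and from each role list the largest and smallest log2 (foldchange), genes called against the majority of their list, and genes with under 3 fragments in every library of a group. CASP8AP2, PEA15, TNFSF10, FASLG, FAF1, CYCS, HTRA2, BIRC6, CASP4, CASP1 and LMNA were added after their values were seen. The members and lists were chosen with earlier results of these data known. Alternatives were pseudocounts of 0.1 and 0.01, no filter, a higher minimum (5 FPKM), 4 other scalings (TPM, quantile, median-of-ratios, and centring of each library on the median of 13 Sertoli genes), limma with a robust prior or with no trend, voom in limma on the recovered fragments, the adjusted p alone, and the omission of each animal. No sequences or positions of these genes were used here.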

Additional observations from a re-analysis of the deposited data

How the results depend on the processing

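Of the 8 tested genes, 7 turned direction with Sertoli centring, none did with median-of-ratios, TPM or quantile scaling, and CASP9 was below 0 under all 4. Sertoli centring lowers every gene by the same amount, and it left CASP6 at −0.11 (limma adjusted p = 0.53). With median-of-ratios scaling the median of all tested genes went from 0.51 to 0.01, the genes called higher and lower from 5023 and 3136 to 2655 and 4173, and those of the role lists from 19 and 5 to 10 and 8, and FADD fell under the threshold at 0.48. With Sertoli centring the median of all genes was −1.93, with 20 genes higher and 12050 lower, 0 and 37 in the role lists and 0 and 5 among the 8 genes, whose values were −0.11 for CASP6, −0.81 for TRADD, −1.0 for CASP8, −1.37 for FADD, −1.55 for CASP2, −1.57 for FAS, −1.80 for APAF1 and −2.49 for CASP9. Quantile scaling put FADD at 0.90, under the threshold. FAS passed it with pseudocounts of 0.1 and 0.01 (1.53 and 1.67), TPM scaling (1.08) and voom (1.66). With the adjusted p alone, 7916 genes, 7 of them from the set, were higher, and 8 of the role lists were lower. With each animal left out in turn, FAS ranged from 0.75 to 1.04, FADD from 0.97 to 1.23 and CASP9 from −0.14 to 0.02. The within-library ratios kept their direction with 1 FPKM added to each gene and without each animal, but with 1 FPKM added FADD to CASP8 went from −0.98 to −0.37 (exact permutation p = 0.3) and CASP6 to CASP8 from 0.80 to 0.88 (exact permutation p = 0.1). Low counts limit FAS and CASP8 in yak and the ligands FASLG, TNF and LTA. The causes of these shifts were not tested. No paired analysis was possible because the labels do not tie any cattle-yak to any yak, and the replicate numbers only name the animals.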
